A study of Mus musculus with 8 samples.

Results

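Foxd1 and 8 forkhead genes that were present throughout the embryonic mouse hypothalamus (Foxd2, Foxp1, Foxp2, Foxp4, Foxo1, Foxo3, Foxn3 and Foxk1) were followed in 8 RNA-seq libraries. The 9 genes were taken by symbol, with rows of the same symbol summed, out of 22725 symbols listed at every stage. They were chosen with earlier results of these data known, so their presence throughout is no independent result. RNA came from Foxd1-mutant and from wild-type hypothalamic tissue at the embryonic stages E12.0 and E12.5 and, later, at E17.5. Each genotype had 1 library at E12.0, 1 at E12.5 and 2 at E17.5. The mutant embryos, 8 in all, are called Foxd1-null in the labels. The 10 control embryos were pooled like them, and the wording of the extraction protocol leaves it uncertain whether the controls were all of wild-type genotype, so the groups follow the genotype given for each library. Neither the mutant allele nor the strain is named. Each library was one pool, and whether the E17.5 pools of a genotype were independent litters is not given, so p-values measure the spread between these libraries, which may be technical. The comparison asks what the loss of Foxd1 is accompanied by in the developing hypothalamus, and here it is put to the other forkhead genes of the same tissue.

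Forkhead factors share a winged-helix DNA-binding domain and are sorted by its sequence into lettered subfamilies. Foxd1 is known in the mouse for its roles in the kidney stroma, in the ventrotemporal retina and optic chiasm, and in the diencephalon from which the hypothalamus forms. Foxp factors are repressors that bind DNA as dimers, Foxo factors are held out of the nucleus when insulin and growth factor signalling activates Akt, Foxk factors recruit the Sin3 corepressor, and Foxn3 is a repressor as well.

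Levels are given as FPKM, fragments per kilobase of transcript scaled to library size, which corrects for transcript length. Between 11572 and 13219 genes were at 1 FPKM or more in a library. At E17.5 the depth read from the steps between the lowest values was 40.8 and 30.3 M fragments in the mutant libraries and 34.6 and 43.5 M in the wild-type libraries, and 79.5% to 80.7% of those low values lay within 0.1 fragment of a whole number. The depth was chosen to bring these same values close to whole numbers, so that share is no separate check of it. One library stood apart: in the wild-type E12.0 library 102 of 11952 tested genes were more than 2-fold above the other 3 E12 libraries on log2(FPKM + 1) and 58 were more than 2-fold below them, against 11 to 41 above and 1 to 6 below in those 3 libraries. The tissue label was checked with 15 hypothalamus markers, all of them tested at both periods and none listed at 0. Their summed FPKM was 173 in the mutant and 263 in the wild-type library at E12.0. It was 268 in the mutant and 265 in the wild-type library at E12.5, and 111 and 124 in the mutant libraries against 147 and 111 in the wild-type libraries at E17.5. One by one, 11 of the 15 markers were below 0 and 4 above on the log2 scale at E12 (median -0.14), with 3 at an unadjusted limma p under 0.05, beside 1.41% of all genes. At E17.5, 12 were below 0 and 3 above (median -0.26), with 8 at an unadjusted p under 0.05, beside 5.7% of all genes, and at neither period was one called. In whole tissue, fewer cells of a type and less RNA per cell cannot be told apart.

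Foxd1 was lower in every mutant library than in the wild-type libraries of its stage. As the targeted gene it checks the labels, and of the 9 genes it alone passed the adjusted threshold in any of the comparisons as set out here. At E12.0 Foxd1 was at 2.77 FPKM in the mutant library and at 24.95 FPKM in the wild-type library. At E12.5 it was at 2.497 FPKM in the mutant and 30.3 FPKM in the wild-type library. At E17.5 it was at 0.396 and 0.230 FPKM in the mutant libraries and at 3.90 and 1.96 FPKM in the wild-type libraries. All 8 libraries lay on the side of their label, and the wild-type level was 9.02 times the mutant level at E12.0, 12.1 times at E12.5 and 9.34 times at E17.5. Foxd1 was not at 0 in any mutant library. At E17.5 its FPKM corresponded to an estimated 37.0 and 16.0 fragments in the mutant and 309 and 195 in the wild-type libraries. These estimates take Foxd1 as 2461 nt long. The single exon of the GENCODE M21 model (chr13:98354242-98359305) is longer, and with it all 4 estimates would be larger. The files give 1 value of Foxd1 per library, so whether the remaining fragments lie in a deleted part of Foxd1 was not tested.

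On the log2(FPKM + 1) scale, Foxd1 fell by 2.97 at E12, with a standard error of 0.16, a 95% interval from -3.38 to -2.57 and a limma adjusted p of 0.0305. At this threshold 4 of 11952 genes, 0.0335%, were called at E12, and 1 of the 9 forkhead genes. At an unadjusted p under 0.05 the counts were 168 genes, 1.41%, and again 1 of the 9. At E12, with 1 library per genotype and stage, a gene's own error is how far the genotype differences of the early stages disagree. With 1 residual degree of freedom, limma drew that error toward the spread of other genes at a like level. The intervals and p-values thus do not rest on the disagreement of 1 gene alone. The Foxd1 call did not hold with a pseudocount of 5, without the filter on low values, with quantile normalization, without the variance trend, with the spread of all 8 libraries or without an E12.0 library, and over all settings its adjusted p ran between 1.02e-13 and 0.149 while its log2 difference stayed between -3.34 and -2.09. At E17.5 the difference was -1.54 with a standard error of 0.24 and an interval from -2.14 to -0.93. Its unadjusted limma p was 0.000942 and its adjusted p 0.689, so it did not pass there. With a pseudocount of 1 added, low values are pulled together: the E17.5 difference was -2.82 with a pseudocount of 0.1 and -0.57 with a pseudocount of 5. At E17.5 the mutant libraries averaged 0.313 ± 0.118 FPKM (SD, n = 2) and the wild-type libraries 2.93 ± 1.37 FPKM (SD, n = 2), so the wild-type libraries differed widely from each other.

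**Figure D1:**
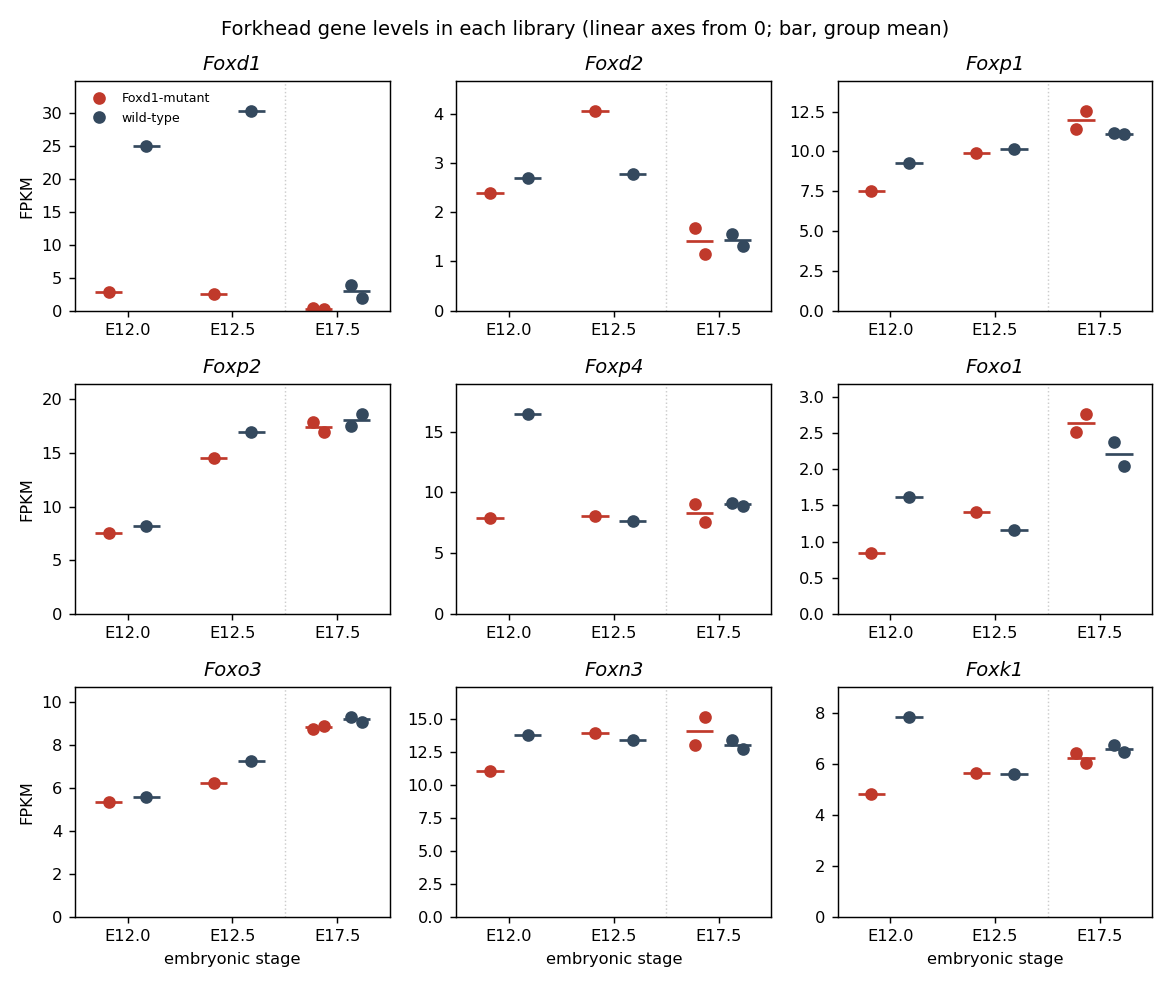
FPKM of the 9 forkhead genes in each of the 8 libraries, by stage, on linear axes that start at 0, with Foxd1-mutant libraries (red) left of wild-type libraries (blue); each point is 1 library, each bar the mean of its group, and the dotted line separates the tables that were made separately. Foxd1 lies at 0.230 to 2.77 FPKM in the mutant libraries and at 1.96 to 30.3 FPKM in the wild-type libraries, while Foxp4 is set apart by 1 wild-type E12.0 library at 16.4 FPKM.

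Foxd2, the closest relative of Foxd1 among these genes and known in the mouse from paraxial mesoderm and kidney, was not called in any comparison. It was at 2.39 FPKM in the mutant and 2.69 FPKM in the wild-type library at E12.0, and at 4.06 FPKM in the mutant and 2.78 FPKM in the wild-type library at E12.5. At E17.5 the mutant libraries were at 1.68 and 1.14 FPKM and the wild-type libraries at 1.56 and 1.32 FPKM. The mutant E12.5 library was the highest of the 8, and at E17.5 the genotypes overlapped. The log2 difference of Foxd2 was 0.15 at E12, with a 95% interval from -0.37 to 0.67 (limma adjusted p = 0.976), and -0.02 at E17.5, with an interval from -0.37 to 0.32 (limma adjusted p = 0.954). In the mutant E12 libraries the 2 genes lay close together, Foxd1 at 2.77 and 2.497 FPKM and Foxd2 at 2.39 and 4.06 FPKM. In the wild-type E12 libraries Foxd1 was at 24.95 and 30.3 FPKM and Foxd2 at 2.69 and 2.78 FPKM.

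The coding sequences of Foxd1 and Foxd2 each lie in a single exon and share their longest identical run of 47 nt in the stretch that encodes the forkhead domain. The stretches below are shown because they decide whether a fragment of one gene can be told from the other. They are printed 5′ to 3′ with the shared run in capitals and 30 nt on either side, from the GENCODE M21 transcripts on GRCm38, chr13:98355001-98355107 on the plus strand for Foxd1 and chr4:114908337-114908443 on the minus strand for Foxd2:
Foxd1: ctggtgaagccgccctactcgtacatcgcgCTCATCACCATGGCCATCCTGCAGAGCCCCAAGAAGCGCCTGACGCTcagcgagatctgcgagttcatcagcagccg
Foxd2: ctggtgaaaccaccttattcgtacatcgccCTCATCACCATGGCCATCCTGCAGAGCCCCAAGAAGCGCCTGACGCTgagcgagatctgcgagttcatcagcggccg
Of the 107 bases printed, 100 are the same in both genes. The shared run is shorter than a read of 100 nt. Among all pairs of the 9 coding sequences it was the longest, followed by 38 nt between Foxo1 and Foxo3 and 35 nt between Foxp1 and Foxp2. Foxd2 was estimated at 168 and 84.7 fragments in the mutant and at 133 and 141 in the wild-type libraries at E17.5.

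Foxp1, Foxp2 and Foxp4 are expressed in developing neurons, where they form homodimers and heterodimers with each other, and Foxp2 is known in humans for its link to speech. None of them was called. Foxp1 was at 7.49 FPKM in the mutant and 9.26 FPKM in the wild-type library at E12.0, at 9.91 FPKM in the mutant and 10.1 FPKM in the wild-type library at E12.5, and at 11.4 and 12.53 FPKM in the mutant libraries against 11.1 and 11.1 FPKM in the wild-type libraries at E17.5. It was thus lower in the mutant at each early stage and higher in both mutant libraries at E17.5. The log2 difference of Foxp1 was -0.15 at E12 (interval from -0.52 to 0.22) and 0.10 at E17.5 (interval from -0.07 to 0.26), and the difference between the 2 was 0.25 with an interval from -0.06 to 0.56 (limma adjusted p = 0.749).

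Foxp2 was at 7.51 FPKM in the mutant and 8.14 FPKM in the wild-type library at E12.0 and at 14.6 FPKM in the mutant and 16.998 FPKM in the wild-type library at E12.5. At E17.5 it was at 17.9 and 16.96 FPKM in the mutant libraries and at 17.54 and 18.6 FPKM in the wild-type libraries, with overlap. Its level at E12.5 was closer to that at E17.5 than to that at E12.0 in either genotype. The log2 difference of Foxp2 was -0.16 at E12 (interval from -0.49 to 0.18) and -0.05 at E17.5 (interval from -0.20 to 0.10).

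Foxp4 showed the largest difference at a single stage after Foxd1. At E12.0 it was at 7.92 FPKM in the mutant and 16.4 FPKM in the wild-type library, a log2 difference of -0.97, and at E12.5 at 8.08 FPKM in the mutant and 7.65 FPKM in the wild-type library, a log2 difference of 0.07. At E17.5 the mutant libraries were at 9.003 and 7.52 FPKM and the wild-type libraries at 9.14 and 8.87 FPKM. The wild-type E12.0 library, the one that stood apart, was alone in holding Foxp4 high: the other 7 libraries lay between 7.52 and 9.14 FPKM. Over both early stages the log2 difference was -0.45 with an interval from -1.14 to 0.24 (limma adjusted p = 0.976), and without either E12.0 library it was 0.07. Without either E12.5 library, Foxp4 was at -0.97, which is the E12.0 difference of 1 mutant and 1 wild-type library.

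At E17.5 the tables have 1 value per RefSeq transcript, and Foxp1, Foxp2 and Foxp4 have 3 each. The other 6 genes have 1. Of Foxp1, transcript NM_001197322 made up 50.7% and 56.1% of the summed FPKM in the mutant libraries and 57.5% and 57.5% in the wild-type libraries, and NM_053202 made up 46.9% and 37.6% in the mutant libraries against 38.9% and 41.5% in the wild-type libraries. NM_001197321 was at 0.108 to 0.79996 FPKM in the 4 libraries and under the filter. NM_001197322 was lower as a share in both mutant libraries. Its FPKM overlapped, at 5.78 and 7.03 in the mutant and 6.41 and 6.38 in the wild-type libraries. The log2 difference of that transcript was -0.0031 with an interval from -0.28 to 0.28 (limma adjusted p = 0.993 over all transcripts). In these shares the mutant libraries differed more from each other than the wild-type libraries did. Of Foxp2, NM_212435 made up 58.9% and 53.9% in the mutant libraries and 51.6% and 47.9% in the wild-type libraries, higher in both mutant libraries. Its FPKM was 10.5 and 9.14 in the mutant and 9.05 and 8.93 in the wild-type libraries, a log2 difference of 0.11 with an interval from -0.11 to 0.34 (limma adjusted p = 0.752 over all transcripts). Of Foxp4, NM_001110825 was at 3.58 and 3.56 FPKM in the mutant and at 4.203 and 4.43 FPKM in the wild-type libraries, without overlap. Among all genes tested at E17.5, 43.1% stood without overlap in either direction, and no such share was taken over transcripts. The log2 difference of NM_001110825 was -0.22 with an interval from -0.45 to 0.01 (limma adjusted p = 0.748). At the adjusted threshold 0 of 16564 transcripts, 0.0%, were called and none of the 14 tested transcripts of these genes. At an unadjusted limma p under 0.05, 961 transcripts (5.8%) passed and 1 of the 14, that of Foxd1. Cufflinks assigns fragments shared by transcripts of a gene by a model, so these shares carry an error that the files do not state.

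The transcripts of the Foxp genes differ both in their ends and in short coding segments, and segments of Foxp2 and Foxp4 are shown as coding differences between the transcripts compared above. They are printed on the gene's strand with the segment in capitals and 12 nt on either side, from GENCODE M21 on GRCm38. The Foxp2 segment (chr6:15377888-15377950, plus strand) is in NM_053242 and NM_212435 and not in NM_001286607. The Foxp4 segment of 3 nt (chr17:47878495-47878497, minus strand) is in NM_001110825 and NM_001110824 and not in NM_028767, and that of 36 nt (chr17:47875689-47875724, minus strand) is in NM_001110824 and in neither of the others:
Foxp2, 63 nt: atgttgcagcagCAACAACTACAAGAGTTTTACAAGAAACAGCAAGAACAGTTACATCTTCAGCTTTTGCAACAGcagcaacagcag
Foxp4, 3 nt: ccctcccgcaagCAGccgtgtgcccga
Foxp4, 36 nt: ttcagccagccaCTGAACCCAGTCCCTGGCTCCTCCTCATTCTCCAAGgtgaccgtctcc
The Foxp2 segment adjoins a run of CAG and CAA, the glutamine codons for which the amino-terminal part of the protein is known. These segments do not by themselves set apart the transcript values. The main Foxp1 transcripts differ mostly in their ends, since NM_001197322 is annotated with 2468 nt, 1728 of them coding, and NM_053202 with 7177 nt, 2115 of them coding. NM_212435 and NM_053242 of Foxp2 have the same 2142 coding bases and differ outside them. NM_001110825 of Foxp4 has 3 nt that NM_028767 lacks, and NM_028767 has 804 noncoding nt that NM_001110825 lacks. The Foxp2 transcript without the segment was at 3.07 and 5.12 FPKM in the mutant libraries and at 4.39 and 5.63 FPKM in the wild-type libraries, with overlap. The Foxp4 transcript with the 36-nt segment was at 1.77 and 1.37 FPKM in the mutant libraries and at 1.38 and 1.58 FPKM in the wild-type libraries, also with overlap.

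**Figure D2:**
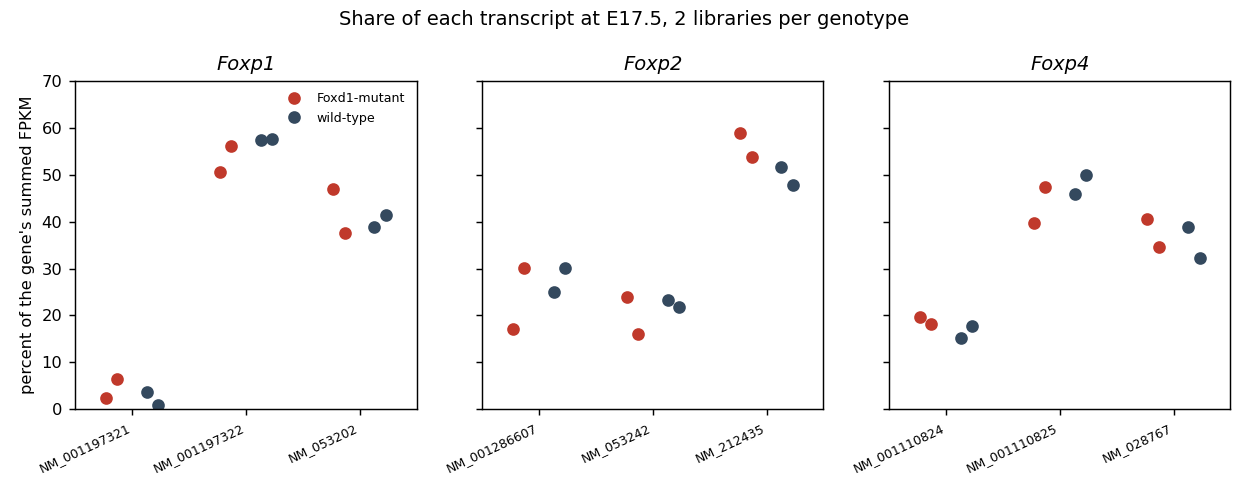
Share of each RefSeq transcript in the summed FPKM of Foxp1, Foxp2 and Foxp4 at E17.5, in percent, with Foxd1-mutant libraries (red) left of wild-type libraries (blue) and 1 point per library. NM_212435 of Foxp2 is at 53.9% and 58.9% in the mutant libraries and at 47.9% and 51.6% in the wild-type libraries, and the mutant libraries spread more widely than the wild-type ones for the 2 main Foxp1 transcripts.

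Genes that work with the Foxp factors, among them subunits of the NuRD corepressor, the CtBP corepressors and transcription factors of forebrain neurons, were counted next to them. At E12, 17 of 18 were tested, with 8 above 0 and 9 below 0 and a median log2 difference of -0.09, beside a median of 0.01 over all genes, and none was called. The largest were -0.76 for Tbr1, -0.47 for Gatad2b, a NuRD subunit, and -0.47 for Nr2f2, a nuclear receptor. At E17.5, 14 of 17 were above 0 and 3 below, with a median of 0.05 beside 0.00 over all genes, and none was called. Tbr1, a T-box factor of early cortical neurons, was at 0.63, and Gatad2b at 0.16. Tbr1 was at 5.91 and 9.83 FPKM in the mutant libraries and at 5.08 and 4.15 FPKM in the wild-type libraries. Tbr1 is itself on the telencephalon list, so the list is not independent of it. At E12, 12 of the 14 genes on that list were tested, with 1 above 0 and 11 below and a median log2 difference of -0.16. At E17.5 all 14 were above 0, with a median of 0.41. The summed FPKM of the list at E17.5 was 95.8 and 176 in the mutant libraries and 99.7 and 97.1 in the wild-type libraries. No telencephalon marker was at 0 at E17.5. The second mutant library, with the sum of 176, was also the one with the higher Foxp1, Foxo1 and Foxn3. Without it the E17.5 log2 differences were 0.03 for Foxp1, 0.13 for Foxo1 and 0.00048 for Foxn3. The part of telencephalic tissue in these values was not tested.

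Foxo1, which in the adult mouse hypothalamus is known to act on the feeding peptide genes Pomc and Agrp, was the lowest of the 9 genes at E12. It was at 0.846 FPKM in the mutant and 1.61 FPKM in the wild-type library at E12.0, and at 1.40 FPKM in the mutant and 1.16 FPKM in the wild-type library at E12.5. At E17.5 it was at 2.51 and 2.77 FPKM in the mutant libraries and at 2.38 and 2.05 FPKM in the wild-type libraries. The direction differed between the early stages, and both mutant libraries were above both wild-type libraries at E17.5. The log2 difference of Foxo1 was -0.17 at E12 (interval from -0.77 to 0.43) and 0.18 at E17.5 (interval from -0.06 to 0.42, limma adjusted p = 0.689).

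Foxo3, known in the mouse for keeping adult neural stem cells from being used up, was steadier. It was at 5.32 FPKM in the mutant and 5.55 FPKM in the wild-type library at E12.0, at 6.24 FPKM in the mutant and 7.25 FPKM in the wild-type library at E12.5, and at 8.74 and 8.88 FPKM in the mutant libraries against 9.27 and 9.07 FPKM in the wild-type libraries at E17.5. Foxo3 was lower in the mutant at each stage without overlap, which 737 of 12519 genes (5.89%) and 2 of the 9 forkhead genes, Foxd1 and Foxo3, were. The size was small, with a log2 difference of -0.12 at E12 (interval from -0.49 to 0.25) and -0.05 at E17.5 (interval from -0.20 to 0.09), and limma adjusted p was 0.976 and 0.771.

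Known FoxO target genes, which serve cell cycle arrest, antioxidant defence, autophagy and insulin signalling, did not pass the test either. At E12, 27 of 30 were tested, with 13 above 0 and 14 below, a median of -0.01 and none called. At E17.5, 18 of 27 were above 0 and 9 below, with a median of 0.03 and none called. The largest E12 difference was -0.42 for Cited2, a transcriptional cofactor, at 18.4 FPKM in the mutant and 31.9 FPKM in the wild-type library at E12.0 and at 23.2 FPKM in the mutant and 24.6 FPKM in the wild-type library at E12.5, followed by -0.37 for Ulk1, an autophagy kinase, and 0.31 for Gadd45a, a stress-induced growth arrest gene. The largest E17.5 difference was -0.30 for Bbc3, the pro-apoptotic Puma gene, at 10.5 and 7.72 FPKM in the mutant and at 10.9 and 11.8 FPKM in the wild-type libraries, followed by 0.26 for Ccnd2, a D-type cyclin, and -0.16 for Irs2, an insulin receptor substrate. The kinases, 14-3-3 proteins and acetyltransferases that regulate FoxO proteins were above 0 in 8 and below 0 in 15 of 23 tested at E12 (median -0.07), and above 0 in 21 and below 0 in 3 of 24 at E17.5 (median 0.06), with none called. Ep300, an acetyltransferase, had the largest E12 difference of these at -0.61, and again the wild-type E12.0 library stood alone. Ep300 was at 7.45 FPKM in the mutant and 19.8 FPKM in the wild-type library at E12.0, while at E12.5 it was at 8.48 FPKM in the mutant and 7.93 FPKM in the wild-type library. The next were Crebbp, its relative, at -0.47 and Ywhaz, a 14-3-3 protein, at -0.29. At E17.5 the largest were 0.19 for Ywhae, another 14-3-3 protein, 0.16 for Sgk3 and 0.15 for Mapk8, both kinases.

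Foxn3, a repressor first described for its part in cell cycle checkpoints, was at 11.1 FPKM in the mutant and 13.8 FPKM in the wild-type library at E12.0, and at 13.96 FPKM in the mutant and 13.4 FPKM in the wild-type library at E12.5. At E17.5 it was at 13.1 and 15.2 FPKM in the mutant libraries and at 13.4 and 12.7 FPKM in the wild-type libraries, with overlap. Its lowest and its highest value were both in mutant libraries. The log2 difference of Foxn3 was -0.12 at E12 (interval from -0.50 to 0.26) and 0.10 at E17.5 (interval from -0.11 to 0.31).

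Foxk1, a repressor of autophagy genes in mouse muscle that acts with Sin3, was at 4.82 FPKM in the mutant and 7.85 FPKM in the wild-type library at E12.0. At E12.5 it was at 5.64 FPKM in the mutant and 5.60 FPKM in the wild-type library, and at E17.5 at 6.43 and 6.04 FPKM in the mutant and 6.74 and 6.48 FPKM in the wild-type libraries. As with Foxp4, the gap at E12.0 (log2 -0.61) had no counterpart at E12.5 (log2 0.01). Over both early stages the difference was -0.30 with an interval from -0.81 to 0.21 (limma adjusted p = 0.976), and at E17.5 it was -0.07 with an interval from -0.24 to 0.10, with both mutant libraries below both wild-type libraries. Without either E12.5 library Foxk1 was at -0.61, which sets 1 mutant library against the wild-type E12.0 library that stood apart.

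Partners of Foxk1 and Foxn3 (Sin3 subunits, the BAP1 deubiquitinase complex, the Dishevelled proteins and others) were above 0 in 7 and below 0 in 8 of 15 at E12, with a median of -0.05, and above 0 in 8 and below 0 in 7 at E17.5, with a median of 0.04. None was called. The largest E12 difference was -0.77 for Dvl3, a Dishevelled protein of the Wnt pathway, at 8.68 FPKM in the mutant and 30.4 FPKM in the wild-type library at E12.0, and at 12.3 FPKM in the mutant and 10.96 FPKM in the wild-type library at E12.5. It was followed by Sap130, a Sin3 subunit, at -0.63 and Hcfc1, the host cell factor bound by BAP1, at -0.32. At E17.5 the largest were 0.12 for Sin3a and 0.10 for Asxl2 and for Sap130.

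Across the 9 genes, the count that were lower in the mutant changed with the stage. At E12.0 all 9 were lower in the mutant library, while 47.2% of all genes tested were. That count sets 1 mutant library against 1 wild-type library, the one that stood apart. Among the E12 libraries, the wild-type E12.0 library was the highest for 3 of the 9, beside 14.1% of all genes tested. The mutant E12.0 library was the highest for 0 of the 9, beside 3.7%. It was the lowest for Foxd2, Foxp1, Foxp2, Foxo1, Foxo3, Foxn3 and Foxk1, and no such share was taken over all genes. At E12.5 4 of the 9 were lower in the mutant library (Foxd1, Foxp1, Foxp2 and Foxo3), while 48.5% of all genes were. These same 4 were lower at both early stages and none was higher at both, beside 21.8% and 25.9% of all genes, so that 4 of 9 kept one direction beside 47.8% of all genes. Past 2-fold on log2(FPKM + 1) was Foxd1 alone among the 9, both at E12.0, beside 2.55% of genes, and at E12.5, beside 0.703%. At E17.5 both mutant libraries were below both wild-type libraries for 3 genes (Foxd1, Foxo3 and Foxk1) and above them for 2 (Foxp1 and Foxo1), beside 22.2% and 20.9% of all genes, so that 5 of 9 stood without overlap beside 43.1% of all genes.

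At E17.5 the adjusted limma threshold was passed by 1 of 13235 genes, 0.00756%, and by none of the 9. At an unadjusted p under 0.05 it was 755 genes (5.7%) and 1 of the 9, Foxd1. For the 8 genes other than Foxd1 the 95% intervals at E17.5 together ran between -0.37 and 0.42 on the log2 scale, and at E12 between -1.14 and 0.67. With stage as a block over all 8 libraries, 0 of 12519 genes (0.0%) and none of the 9 passed, while 695 genes (5.55%) and Foxd1 had an unadjusted p under 0.05. Foxd1 was at -2.25 there, with an interval from -3.01 to -1.50 (limma adjusted p = 0.749). The genotype difference was also set against itself between E17.5 and E12, where 4 genes (0.032%) and none of the 9 passed. Foxd1 differed by 1.44 with an interval from 0.59 to 2.28 on the log2(FPKM + 1) scale (limma adjusted p = 0.749), and 494 genes (3.95%) and Foxd1 were under 0.05 before adjustment. The fold in FPKM itself was 9.02 and 12.1 at the early stages and 9.34 at E17.5.

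**Figure D3:**
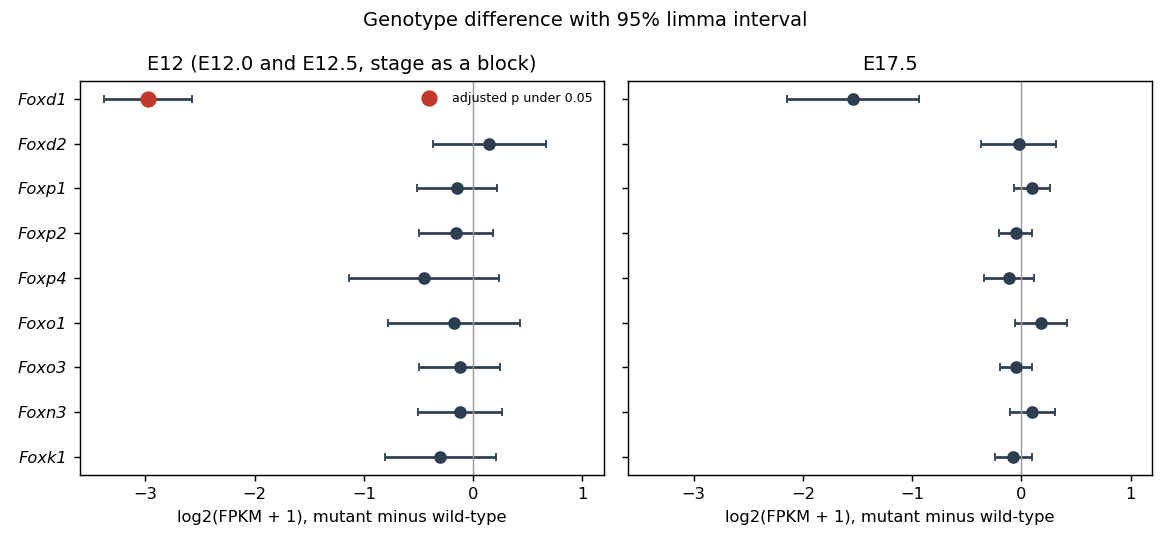
Genotype difference of the 9 forkhead genes at E12 and at E17.5 on the log2(FPKM + 1) scale, mutant minus wild-type, with 95% limma intervals; values left of 0 are lower in the mutant and the red point passed the adjusted threshold. Foxd1 is at -2.97 at E12 and -1.54 at E17.5, and the intervals of the other 8 genes all include 0 in both panels.

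The order of levels within a library changed mainly through Foxd1. It ranked 7th of the 9 in the mutant E12.0 library and 8th in the mutant E12.5 library, above 58.0% and 54.8% of all listed genes. In the wild-type libraries of those stages it ranked 1st, above 89.3% and 88.3% of genes. At E17.5 it was 9th in both mutant libraries and 7th and 8th in the wild-type libraries, above 36.3% to 56.3% of genes. At E17.5 Foxp2 was the highest, Foxn3 the second and Foxp1 the third in each of the 4 libraries. Foxp4 and Foxo3 followed without a gap beyond their spread, at 7.52 to 9.14 and 8.74 to 9.27 FPKM, then Foxk1 at 6.04 to 6.74 FPKM. Foxo1 and Foxd2 were lowest beside Foxd1, at 2.05 to 2.77 and 1.14 to 1.68 FPKM. Foxp1 and Foxn3 did not overlap there, at 11.1 to 12.53 and 12.7 to 15.2 FPKM.

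Levels at E12 and E17.5 come from tables that were made separately, on genes and on transcripts, so they are set side by side without a test. For 4 of the 9 genes the ranges did not overlap, beside 62.9% of all genes. Foxd2 was lower at E17.5, where 17.4% of all genes were, at 1.14 to 1.68 FPKM, against 2.39 to 4.06 FPKM at E12. Higher at E17.5, where 45.4% of all genes were, were Foxp1, at 11.1 to 12.53 FPKM against 7.49 to 10.1 FPKM, Foxo1, at 2.05 to 2.77 FPKM against 0.846 to 1.61 FPKM, and Foxo3, at 8.74 to 9.27 FPKM against 5.32 to 7.25 FPKM. In wild-type libraries Foxd1 averaged 2.93 FPKM at E17.5 and 27.6 FPKM at E12, a 9.44-fold lower level. Foxn3 and Foxk1 were within 1.04-fold and 1.02-fold of their E12 means in the wild-type libraries at E17.5. All 8 libraries held at least 1 FPKM of Foxd2, the Foxp genes, Foxo3, Foxn3 and Foxk1. Foxo1 was under 1 FPKM in 1 library and Foxd1 in 2, all of them mutant.

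The rest of the family was counted from 36 further forkhead names. At E12, 34 were listed and 16 averaged 1 FPKM or more. Of those 16, 4 were above 0 and 12 below, with a median of -0.13 beside 0.01 over all genes, and none was called. As among the 9 genes, more were lower in the mutant at E12.0 (11 of 16) than at E12.5 (8 of 16). At E17.5, 35 were listed and 18 tested, with 11 above 0 and 7 below, a median of 0.00, none called and 3 at an unadjusted limma p under 0.05, beside 5.7% of all genes. At E12 Foxj2 was at -0.38 and Foxb2 at -0.31.

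Foxb2, a forkhead factor of the embryonic brain, was at 0.894 and 0.931 FPKM in the mutant libraries and at 1.56 and 1.47 FPKM in the wild-type libraries at E17.5, a log2 difference of -0.40 ± 0.09 (SE; limma adjusted p = 0.689). At E12.0 Foxb2 was at 2.04 FPKM in the mutant and 4.19 FPKM in the wild-type library, and at E12.5 at 3.56 FPKM in the mutant and 3.13 FPKM in the wild-type library. Foxc1, a factor of the meninges and head mesenchyme, was at 6.82 and 5.72 FPKM in the mutant and 5.998 and 4.07 FPKM in the wild-type libraries at E17.5, with overlap and a log2 difference of 0.28. It belongs to the 13 meningeal and mesenchymal markers, of which 12 were above 0 and 1 below at E17.5 with a median of 0.37. Their summed FPKM was 292 and 216 in the mutant libraries and 263 and 166 in the wild-type libraries, and none was at 0 at that stage. The part of meningeal tissue in Foxc1 was not tested.

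**Figure D4:**
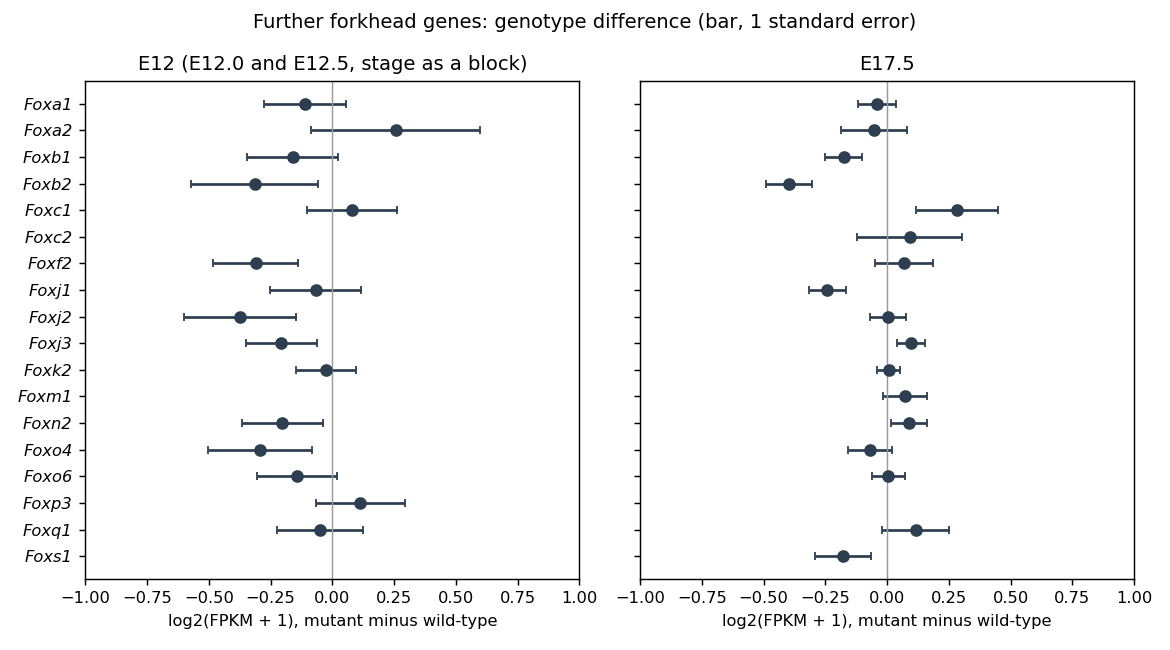
Genotype difference of other forkhead genes that averaged 1 FPKM or more, at E12 (left) and E17.5 (right), on the log2(FPKM + 1) scale as mutant minus wild-type, with bars of 1 standard error; a gene with no point in a panel was not tested there. Foxb2 stands left of 0 at -0.31 and -0.40, and none of the genes shown passed the adjusted threshold.

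The genes whose levels ran most like those of Foxd1 over the 8 libraries, among 3708 genes that averaged 1 FPKM or more and had a standard deviation of at least 0.5 on the log2 scale, were Helt (Pearson r = 0.85), Prdm12 (0.83), Lhx1 (0.83), Nkx2-2 (0.82) and Foxb2 (0.81). These are transcription factors of the embryonic brain. The 8 libraries fall into stages and genotypes, and the likeness is a description of that pattern. Nkx2-2 was at 14.6 FPKM in the mutant and 21.9 FPKM in the wild-type library at E12.0, at 15.8 FPKM in the mutant and 19.5 FPKM in the wild-type library at E12.5, and at 4.65 and 3.83 FPKM in the mutant against 6.19 and 5.27 FPKM in the wild-type libraries at E17.5. It was lower in the mutant at every stage without overlap, like Prdm12, which was at 1.78 and 1.49 FPKM in the mutant and at 2.18 and 2.49 FPKM in the wild-type libraries at E17.5. That pattern held for 5.89% of all genes, and picking genes by their likeness to Foxd1 favours it. Helt was at 1.30 FPKM in the mutant and 2.47 FPKM in the wild-type library at E12.0, at 1.23 FPKM in the mutant and 3.08 FPKM in the wild-type library at E12.5, and at 0.0339 to 0.126 FPKM in the 4 libraries at E17.5. None of the 5 passed the adjusted threshold in any comparison in which it was tested.

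For the other 8 genes the same measure was taken. Foxd2 ran with Hmx3 (r = 0.98), Neurog3 (0.96) and Rax (0.96), transcription factors known from the early hypothalamus among other tissues. Foxp1 was most like Xpr1 (0.97), Arl4d (0.96) and Mapk10 (0.96), Foxp2 most like S100a10 (0.98), Tuba1a (0.98) and Tcp11l2 (0.98), and Foxp4 most like Tox2 (0.98), Nova2 (0.97) and Zmiz1 (0.97). Foxo1 was most like Aff2 (0.98), Map1b (0.98) and Arsb (0.97), and Foxo3 most like Cacng8, Myc and Zfand2a, at 0.995 to 0.997. Foxk1 was most like Tubb4a (0.97), Shank1 (0.96) and Mospd3 (0.96). Foxn3, whose level varied least of the 9 with a standard deviation of 0.12 on the log2 scale, had no likeness above 0.76, with Arl4d first, then Neurod2 (0.73) and Arsb (0.64).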

How the data were processed

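RNA-seq of Foxd1-mutant and wild-type hypothalamus was analysed from FPKM values, which the authors deposited for each library. Per the submitters' processing notes, TopHat and Cufflinks were used with mouse build mm9, and versions are not given in the sources used here. Per the labels, libraries came from pooled RNA and were paired-end, 100 cycles. The 4 E12 files list 23737 rows, of which 8 without a gene name were dropped (0.0285% to 0.0360% of FPKM), and the 4 E17.5 files list 32952 transcripts. Rows were summed by symbol. FPKM without counts allowed no count model.

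Values were taken as log2(FPKM + 1). Those genes whose mean in a fit's libraries reached 1 FPKM entered limma 3.58.1 (R 4.3.3), with a variance trend, two-sided, with Benjamini-Hochberg adjustment over all genes and a threshold of 0.05. The E17.5 fit had 2 residual degrees of freedom, the E12 fit (stage as a block) 1, the fit over all stages 4 and the difference between E17.5 and E12 3. Depth at E17.5 was estimated from single transcripts of at least 2500 nt, with 170 nt taken off for fragment length. Fragments were estimated with Foxd1 at 2461 nt and Foxd2 at 2619 nt. Intervals cover the spread between libraries, which limma moderated across genes at a like level. Transcript sequences and positions came from GENCODE M21 (GRCm38), a later build than that of the files. Other software was pandas 2.3.3, numpy 2.4.6 and matplotlib 3.10.9 under Python 3.11.15.

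The genes and lists were chosen with earlier results of these data known. All 9 genes are given in every library. Of each list the counts, the median and up to 3 genes with the largest differences are given, and likeness was ranked by Pearson r, with 5 genes for Foxd1 and 3 for the others, without predicted, small RNA and sex-linked genes. Some genes that these rules name are not reported here. Alternatives changed the pseudocount, filter, scaling, trend, joining of rows, blocks and libraries. Those with the spread of all 8 libraries, without both E12.0 libraries, without small RNA genes and with single transcripts were added after seeing the data.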

Additional observations from a re-analysis of the deposited data

How the results depend on the processing

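Foxd1 stayed below 0 at E12, at E17.5 and over all stages in every alternative that could test it. With a filter at 5 FPKM, and without the first wild-type E17.5 library, it fell under the filter at E17.5. Genes called at E12 (4 as reported) were 1 with a pseudocount of 5, without the filter, with quantile normalization or without the trend. They were 78 with no stage block and 51 without both E12.0 libraries. Without single E12 libraries they were 49 to 2414, and there the spread came from the E17.5 libraries alone. The forkhead genes called at E12 (1 as reported) were 0 with a pseudocount of 5, without the filter, with quantile normalization, without the trend, with the spread of all 8 libraries and without both E12.0 libraries, and 0 to 3 without single libraries. Genes called at E17.5 (1 as reported) were 0 without the filter and 0 with a filter at 5 FPKM, and 1 to 44 without single libraries, the most without the first mutant library. With the replicate number as a block there were 16, and 1 forkhead gene, Foxd1 (limma adjusted p = 0.00371). With only 2 pairs, and a correlation of 0.03 between deviations of libraries with the same number, the numbers were not taken as pairs. Genes called in the difference between E17.5 and E12 (4 as reported) were 1 with a pseudocount of 0.1, 1 with a pseudocount of 5, 0 without the filter, 0 with a filter at 5 FPKM, 48 without both E12.0 libraries and 0 to 1465 without single libraries, and its forkhead genes 0 to 2.

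The sign turned for genes that were not called. Without single libraries, Foxd2 was between -0.19 and 0.14 at E17.5, positive without the second mutant or the first wild-type library (0.05). With the highest row per symbol Foxp1 was at -0.0031 and Foxp2 at 0.11 there. At E12, without single libraries, Foxd2 was between -0.12 and 0.42, Foxp4 between -0.97 and 0.070, Foxo1 between -0.50 and 0.16, Foxn3 between -0.29 and 0.055 and Foxk1 between -0.61 and 0.0083. The second value of each pair is that without an E12.0 library, and without both it was the same. The cause was not tested. For the 8 genes other than Foxd1, 0 of 118 values at E17.5 were called over all settings. At E12 the only calls were of Foxp4 and Foxk1 without an E12.5 library, where the spread came from E17.5 alone.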
